A study of Mus musculus with 9 samples.

Results

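Collagen chain genes are the genes whose symbol names a collagen type and one of its chains, such as Col1a1 or Col4a5. On the arrays analysed here they are all genes of that naming pattern with a probe set that the platform's annotation gives to 1 symbol alone. There were 36 such genes among the 12393 genes that such a probe set stands for, and they held 58 of the 22626 probe sets tested. The genes were picked by name and not by measured values, though earlier results of these data were known at the time. Where a gene had several probe sets, as 19 of the 36 did, the one with the highest mean over all arrays stands for it. The genes were sorted by the known build of the protein into 9 fibrillar chains, 8 network chains, 9 FACIT chains, 3 transmembrane chains, 3 beaded filament chains of collagen VI, 2 multiplexins, the anchoring fibril chain Col7a1 and the remaining gene Col26a1. The mouse RefSeq list has 8 further collagen chain genes (Col6a4, Col6a5, Col6a6, Col8a2, Col23a1, Col24a1, Col27a1 and Col28a1), which were not analysed here.

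Total RNA from 3 kinds of mouse culture was measured on 9 MOE430A arrays, with 3 arrays for each. Mammospheres (MMS) are floating spheres grown from dissociated mammary glands of virgin FVB/N females aged 6 to 8 weeks. Mammospheres induced to differentiate (diffMMS) are FVB/N mammosphere cells that were dispersed, plated on dishes coated with rat-tail collagen and kept in medium with serum for 7 days. Tumorspheres (TMS) are spheres from mammary tumors of the MMTV-Neu (N2O2) transgenic mouse, in which the MMTV promoter drives Neu in mammary epithelium. All cultures began in the same stem cell medium with a passage every 7 days, and spheres were taken at passages 3 to 5. The tumorsphere cultures came from independent tumors, and MMS and diffMMS were each from 3 separate preparations. Neither labels nor methods say how many animals each held, or whether a diffMMS sample shared its preparation with an MMS sample. The diffMMS samples differ from MMS in attachment, in the collagen coating and in serum at once, and these cannot be told apart. The labels give no strain for the tumorspheres, and their arrays carry codes that run apart from those of the 6 mammosphere arrays, and nothing says whether they were processed separately. If they were, that and the culture cannot be told apart wherever TMS is compared.

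Spearman correlations between arrays of a group were 0.985 or higher, and array medians ran from 84.0 to 88.6 intensity units. Values below are log2 intensities after quantile normalization, on which a step of 1 is a doubling, and the median of all values was 6.57. A probe set whose highest group mean is not above that median is called dim here, since no detection calls were used. Intensities of different probe sets are not on a common scale, so that levels are compared between cultures and not between genes. A gene was called higher or lower where limma's adjusted p, by Benjamini-Hochberg over 22626 probe sets, was under 0.05. The labels were checked against markers. Krt18, a keratin of luminal epithelium, had group means of 5.93 in MMS, 5.49 in diffMMS and 10.20 in TMS, and Krt14, a keratin of basal epithelium, had 5.58, 5.58 and 6.81. The TMS arrays of Krt14 were spread out, at 5.83, 6.56 and 8.03. Krt18 and Krt14 were both below the median of all values in MMS and diffMMS. Krt8, also luminal, was above it there at 7.30 and 7.26, against 10.55 in TMS, as were the basal Krt5 at 6.73 and 6.92, against 6.64 in TMS, and the luminal Cldn3 at 8.07 and 8.64. Of the further luminal markers counted below, Krt19, Epcam, Cdh1, Cldn4, Cldn7 and Prom1 were below that median in both MMS and diffMMS. Elf3 was above it in both. Among the further basal markers Krt17, Trp63 and Myh11 were below it in both, and Acta2, Tagln and Mylk above it. Vim, Fn1, Lum and Dcn, which mesenchymal cells express strongly, had group means of 10.62 or higher in all 3 cultures. In bulk RNA of this kind, fewer cells of a type and less RNA per cell cannot be told apart. Erbb2, the gene behind the Neu model, was 7.73, 7.66 and 7.49 in TMS, 7.23, 7.31 and 7.31 in MMS and 7.43, 7.43 and 7.51 in diffMMS. Whether its probe set also reads the transcript of the transgene was not tested.

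Collagens are proteins of 3 chains wound into a triple helix. Fibrillar collagens (I, II, III, V and XI) line up into the banded fibrils of connective tissue, FACIT collagens sit on the surface of those fibrils, and network collagens such as IV form sheets, with collagen IV as the scaffold of basement membranes. Collagen VI makes beaded microfilaments near cells, multiplexins XV and XVIII lie in basement membrane zones and carry sugar chains, and transmembrane collagens are anchored in the plasma membrane. In the mammary gland the stroma is the known main source of fibrillar collagen, and a basement membrane parts it from the epithelium.

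Sequences upstream of the annotated starts are shown for chains of 1 collagen type that moved apart or together in the data. They are from RefSeq on GRCm38.p6, and windows were held for 27 of the 36 genes, not for Col1a1, Col2a1, Col4a3, Col5a2, Col9a3, Col12a1, Col14a1, Col22a1 and Col26a1. The first is the stretch of 30 bases where Col4a1 and Col4a2 begin on opposite strands (chr8:11312801-11312830, plus strand). Capitals mark the 22 bases from the first base of Col4a2 to the first base of Col4a1, which both genes' transcripts hold.
Col4a1 and Col4a2 starts: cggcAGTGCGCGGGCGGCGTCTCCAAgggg
Col4a5 and Col4a6 also lie head to head, with annotated starts 1343 bases apart. Their windows (chrX:141475169-141475418, plus strand, and chrX:141474077-141474326, minus strand) are the 250 bases before each start. Capitals mark every match to CCAAT (the CCAAT box) or to GGGCGG (the GC box), searched on both strands as CCAAT or ATTGG and as GGGCGG or CCGCCC, and no match to TATAAA or to TGANTCA was present in them.
Col4a5: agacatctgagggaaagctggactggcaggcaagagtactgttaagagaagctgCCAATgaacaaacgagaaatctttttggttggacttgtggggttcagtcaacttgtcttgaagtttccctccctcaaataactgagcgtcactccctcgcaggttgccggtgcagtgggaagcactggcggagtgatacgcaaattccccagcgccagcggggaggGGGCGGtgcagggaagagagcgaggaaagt
Col4a6: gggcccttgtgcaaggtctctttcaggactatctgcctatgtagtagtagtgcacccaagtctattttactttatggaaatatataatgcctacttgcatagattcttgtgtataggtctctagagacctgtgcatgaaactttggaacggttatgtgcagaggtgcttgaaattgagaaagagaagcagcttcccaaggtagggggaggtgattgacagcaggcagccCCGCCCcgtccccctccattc
Col5a1 and Col5a3, chains of the same collagen V, moved in opposite directions in diffMMS. Their windows are chr2:27886175-27886424 on the plus strand and chr9:20815068-20815317 on the minus strand, with the same motifs in capitals.
Col5a1: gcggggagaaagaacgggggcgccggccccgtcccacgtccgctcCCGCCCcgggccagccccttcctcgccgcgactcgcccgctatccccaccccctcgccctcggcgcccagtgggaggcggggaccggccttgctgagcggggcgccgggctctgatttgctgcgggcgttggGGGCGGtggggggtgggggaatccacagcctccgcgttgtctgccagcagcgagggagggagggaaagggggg
Col5a3: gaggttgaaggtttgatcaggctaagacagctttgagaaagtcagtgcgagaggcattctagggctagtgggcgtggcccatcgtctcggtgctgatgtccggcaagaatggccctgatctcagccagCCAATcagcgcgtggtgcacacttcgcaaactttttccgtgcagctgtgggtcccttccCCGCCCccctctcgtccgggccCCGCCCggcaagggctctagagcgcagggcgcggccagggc
Over the 30 windows of the collagen chain genes, where a gene may have more than 1 start, GGGCGG was in 16, CCAAT in 12, TATAAA in 5 and TGANTCA, the site of AP-1, in 1. Among 32851 mouse windows of the same length the shares were 32.7%, 33.8%, 12.4% and 6.75% in that order. The Col5a1 window has GGGCGG matches and no CCAAT, and the Col5a3 window has both.

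The first question was how collagen chains differ between mammospheres and the same kind of cells after induced differentiation. Of the 36 genes, 17 were higher in diffMMS, 9 were lower and 10 were not called, and among all 12393 genes 17.9% were called higher and 16.2% lower. The median log2 fold change over the collagen chain genes was 0.23, with a range from -2.49 to 3.67, and over all genes it was 0.05. The classes went different ways. Fibrillar chains had 7 of 9 higher and 1 lower, and FACIT chains had 6 of 9 higher and none lower. All 3 collagen VI chains and both multiplexins were lower, and the network chains were mixed, with 3 of 8 higher and 2 lower.

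**Figure D1:**
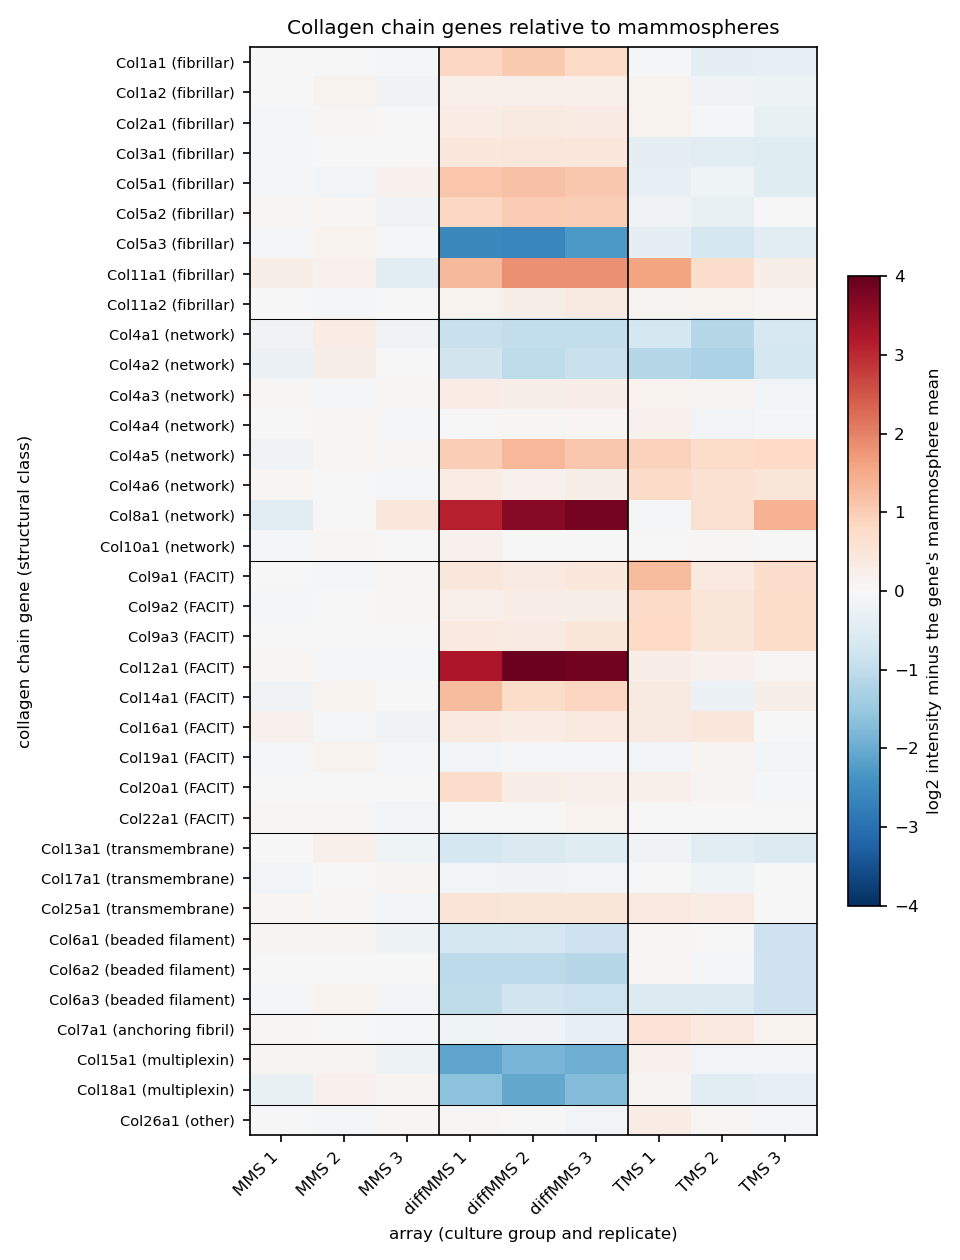
Heat map of the 36 collagen chain genes (rows, grouped by structural class) on the 9 arrays (columns), with color giving the log2 intensity minus the gene's mean in MMS. The deepest red fields are Col12a1 and Col8a1 on the 3 diffMMS arrays, and the deepest blue ones there are Col5a3, Col15a1 and Col18a1.

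The largest rise was that of Col12a1, a FACIT chain that coats collagen I fibrils. Its log2 intensities were 7.26, 7.15 and 7.15 in MMS, 10.41, 11.11 and 11.05 in diffMMS and 7.46, 7.35 and 7.23 in TMS. The diffMMS arrays lay far above all others, and MMS and TMS lay close together. The log2 fold change of diffMMS against MMS was 3.67 (standard error 0.15), which is 12.7-fold (limma, adjusted p = 9.35e-09). Col14a1, which is related to Col12a1 and also binds fibrils, was 7.91, 8.20 and 8.04 in MMS and 9.30, 8.78 and 8.91 in diffMMS (log2 fold change 0.95, standard error 0.161, adjusted p = 0.000854). Every diffMMS array was above every MMS array for both genes. Among the other FACIT chains Col9a3 rose by 0.40, called on 1 of its 3 probe sets, and Col9a2, which is dim, by 0.23. Col9a1 had a log2 fold change of 0.41 that missed the threshold (adjusted p = 0.082). It passed without TMS replicate 1 (0.41, adjusted p = 0.00535) or TMS replicate 2 (0.41, adjusted p = 0.0327). It also passed in a limma fit of MMS and diffMMS alone (0.41, adjusted p = 0.00168). The other Col9a1 probe set was at -0.05 (adjusted p = 0.905). Col16a1 (0.36) and Col20a1 (0.38) were called, Col20a1 on 1 of its 3 probe sets. Col19a1 and Col22a1, both dim, were at -0.09 and 0.06 and were not called. Several of these small rises lost their call on leaving out 1 array, which also makes its group smaller. The call of Col9a2 was lost on leaving out any 1 of the 6 arrays compared (adjusted p up to 0.124), with log2 fold changes of 0.20 to 0.27. That of Col16a1 was lost without MMS replicate 2 or 3 or any diffMMS array (adjusted p 0.0527 to 0.133), and that of Col20a1 without any MMS array or diffMMS replicate 1 (0.0732 to 0.0812). On the intensities as deposited the log2 fold change of Col16a1 was 0.14 (adjusted p = 0.283).

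Among the fibrillar chains, Col1a1, which encodes the main chain of collagen I, rose from 12.20, 12.22 and 12.15 in MMS to 13.01, 13.23 and 12.96 in diffMMS. The log2 fold change was 0.87 (standard error 0.0937, adjusted p = 2.5e-05), and the groups did not overlap. Col1a2, its partner chain, had 13.17, 13.29 and 13.01 in MMS and 13.37 on each diffMMS array. Its probe set was the brightest of all on every diffMMS array, and quantile normalization gives the brightest probe set of each array 1 and the same value. The log2 fold change was 0.21 (adjusted p = 0.0958), against 0.51 on the deposited intensities (adjusted p = 0.00196) and 0.73 on its other probe set (adjusted p = 5.86e-06). Without TMS replicate 1 it was called at 0.23 (adjusted p = 0.0322), and in a limma fit of MMS and diffMMS alone at 0.21 (adjusted p = 0.0373). The deposited intensities were 8985, 9367 and 8365 in MMS and 12365, 13151 and 12586 in diffMMS, all higher in diffMMS. Col3a1, the chain of collagen III, rose by 0.43 (standard error 0.0611, adjusted p = 0.000237), from 12.71, 12.78 and 12.77 to 13.17, 13.19 and 13.17, and its other and less bright probe set by 1.43.

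Collagen V regulates the width of collagen I fibrils, and its chains parted. Col5a1 was 10.18, 10.10 and 10.38 in MMS, 11.32, 11.39 and 11.28 in diffMMS and 9.89, 10.06 and 9.75 in TMS. Col5a2 was 11.964, 11.998 and 11.756 in MMS, 12.75, 12.93 and 12.89 in diffMMS and 11.78, 11.61 and 11.92 in TMS. For both chains the diffMMS arrays were the highest 3 of the 9. Col5a3 was 10.34, 10.51 and 10.31 in MMS, 7.81, 7.79 and 8.10 in diffMMS and 9.995, 9.685 and 9.966 in TMS, so that the diffMMS arrays were the lowest 3. The log2 fold changes of diffMMS against MMS were 1.12 for Col5a1 (standard error 0.0955, adjusted p = 3.8e-06), 0.95 for Col5a2 (standard error 0.0937, adjusted p = 1.29e-05) and -2.49 for Col5a3 (standard error 0.109, adjusted p = 1.54e-08), the last a 5.61-fold fall. All 3 probe sets of Col5a1 and both of Col5a2 rose. The fall of Col5a3 was seen on the brighter of its probe sets only, since the other was dim, with group means of 5.30 in MMS and 5.39 in diffMMS.

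Col11a1, a chain of the collagen XI of cartilage fibrils that also assembles with collagen V chains, was 7.18, 7.13 and 6.55 in MMS, 8.25, 8.78 and 8.78 in diffMMS and 8.53, 7.67 and 7.19 in TMS. It rose by 1.65 in diffMMS (standard error 0.284, 3.14-fold, adjusted p = 0.000948), and the TMS arrays ran from just above the MMS values into those of diffMMS. Col2a1, the chain of cartilage collagen II, was called 0.32 higher (adjusted p = 0.0304) and the dim Col11a2 0.24 higher (adjusted p = 0.0233). The call of Col2a1 was lost on leaving out any 1 of the 6 arrays (adjusted p 0.0549 to 0.0926) and that of Col11a2 without MMS replicate 2 or 3 or diffMMS replicate 3 (0.062 to 0.0865). On the intensities as deposited Col2a1 had 0.27 (adjusted p = 0.0521).

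**Figure D2:**
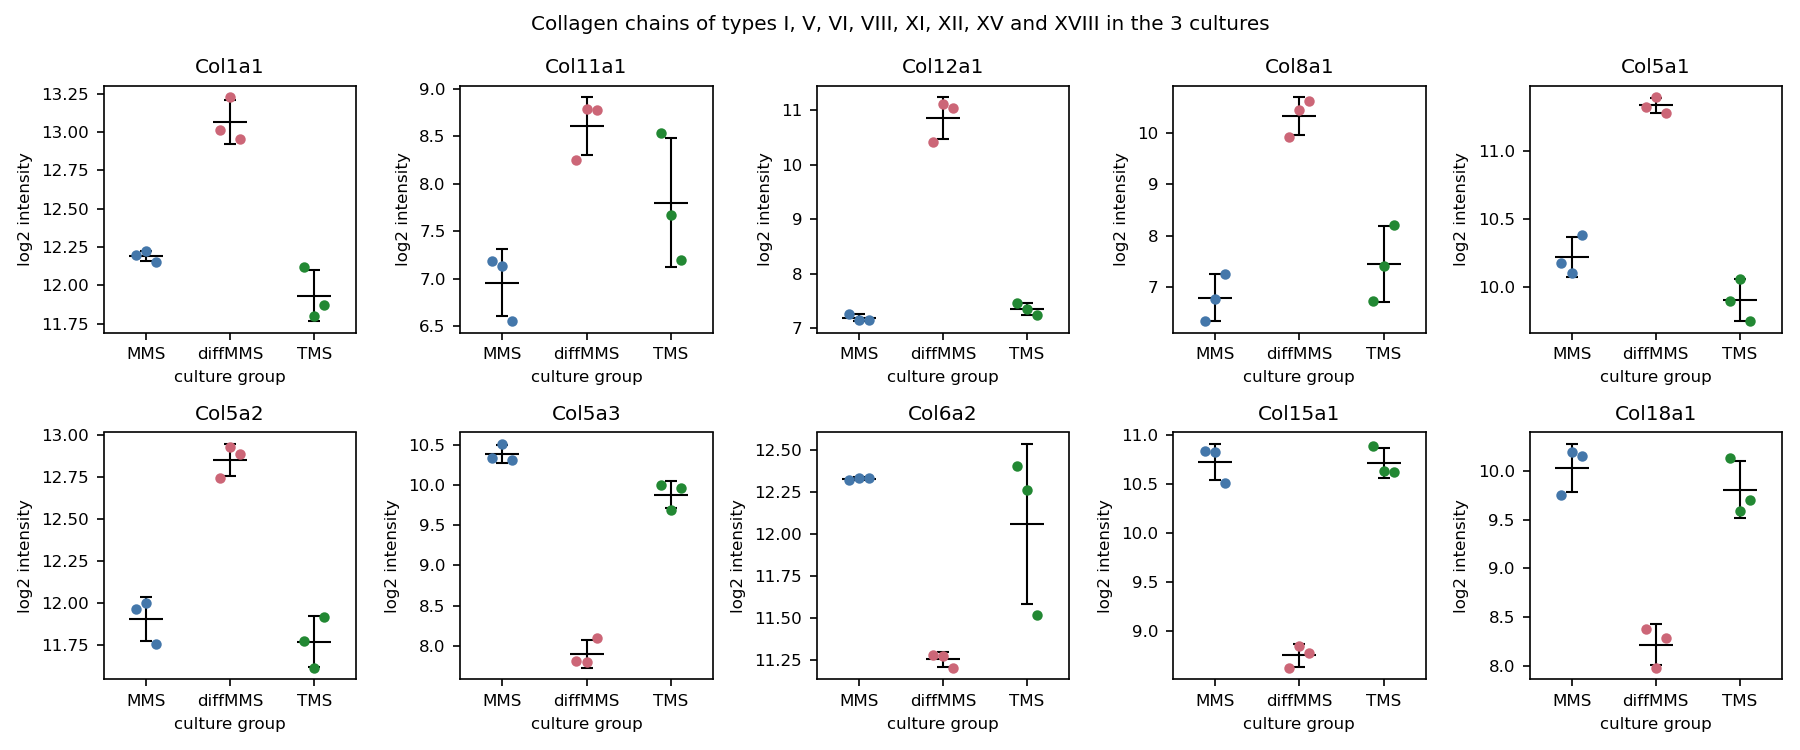
Log2 intensity (y axis) of 10 collagen chain genes in MMS, diffMMS and TMS (x axis), with 1 point for each of the 3 arrays of a group, a bar at the mean and whiskers of 1 SD; the y axes do not start at 0. Col1a1, Col5a1, Col5a2, Col8a1, Col11a1 and Col12a1 have their highest mean in diffMMS, and Col5a3, Col6a2, Col15a1 and Col18a1 their lowest.

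The network chains went both ways. Col8a1, a short-chain collagen of vessel walls and of the membrane behind the cornea, was 6.35, 6.78 and 7.27 in MMS, 9.92, 10.43 and 10.62 in diffMMS and 6.74, 7.42 and 8.20 in TMS. It was 11.5-fold higher in diffMMS than in MMS (log2 fold change 3.52, standard error 0.321, adjusted p = 6.59e-06), and its other probe set rose by 2.73. The Col8a1 values of MMS and TMS overlapped and were more spread out than those of most collagen chains. Col10a1, the network collagen of hypertrophic cartilage, was dim and not called in any comparison.

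In collagen IV the chains of the common basement membrane network fell and a chain of the rarer networks rose. Col4a1 was 11.52, 11.95 and 11.50 in MMS and 10.77, 10.65 and 10.67 in diffMMS, and Col4a2 was 10.15, 10.62 and 10.37 in MMS and 9.64, 9.35 and 9.49 in diffMMS. These chains, whose starts share the stretch shown above, fell by similar amounts, 0.95 for Col4a1 (standard error 0.14, adjusted p = 0.000294) and 0.89 for Col4a2 (standard error 0.152, adjusted p = 0.000933) on the log2 scale. Col4a5 was 6.19, 6.42 and 6.38 in MMS and 7.30, 7.67 and 7.40 in diffMMS, a rise of 1.13 (standard error 0.104, adjusted p = 7.3e-06), and its other probe set rose by 1.12. Col4a6, on the other side of the Col4a5 start, was 6.21, 6.14 and 6.08 in MMS and 6.45, 6.32 and 6.37 in diffMMS, where its log2 fold change of 0.23 just missed the threshold (adjusted p = 0.055) although the groups did not overlap. Without TMS replicate 1 or 3 it was called, at 0.24 (adjusted p = 0.0317) and 0.23 (adjusted p = 0.0301). In a limma fit of MMS and diffMMS alone it was also called, at 0.23 (adjusted p = 0.0276). Of the remaining pair, which form the network of the kidney's filter with Col4a5, Col4a3 was called 0.27 higher (adjusted p = 0.0294), a call lost on leaving out any 1 of the 6 arrays (adjusted p 0.0549 to 0.117), and Col4a4 was dim and at 0.04.

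The basement membrane zone multiplexins had the most marked falls after Col5a3. Col15a1 was 10.84, 10.83 and 10.52 in MMS, 8.63, 8.86 and 8.78 in diffMMS and 10.89, 10.64 and 10.62 in TMS. Col18a1, whose protein is the source of the fragment endostatin, was 9.75, 10.20 and 10.15 in MMS, 8.38, 7.98 and 8.29 in diffMMS and 10.13, 9.59 and 9.70 in TMS. For both genes MMS and TMS overlapped and diffMMS lay below them. Col15a1 was 3.93-fold lower in diffMMS than in MMS (log2 fold change -1.97, standard error 0.108, adjusted p = 9.16e-08) and Col18a1 3.51-fold lower (log2 fold change -1.81, standard error 0.158, adjusted p = 4.44e-06), with the other Col18a1 probe set at -1.82.

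All 3 chains of collagen VI fell. Col6a2 was 12.32, 12.33 and 12.33 in MMS, 11.28, 11.28 and 11.20 in diffMMS and 12.40, 12.27 and 11.52 in TMS. Col6a1, its neighbor in the genome, was 11.88, 11.90 and 11.57 in MMS, 11.09, 11.12 and 10.96 in diffMMS and 11.86, 11.79 and 10.95 in TMS. In both genes the third tumorsphere array stood close to diffMMS while the other two stood close to MMS. The log2 fold changes of diffMMS against MMS were -1.08 for Col6a2 (standard error 0.171, adjusted p = 0.000535), -0.73 for Col6a1 (standard error 0.192, adjusted p = 0.0129) and -0.88 for Col6a3 (standard error 0.0989, adjusted p = 3.56e-05). Without MMS replicate 2 the value of Col6a1 was -0.68 and its adjusted p 0.0549.

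Of the transmembrane chains, Col25a1, known from the brain, was 0.50 higher in diffMMS (adjusted p = 0.00272), and Col13a1, which is found at cell adhesions and was dim here, was 0.58 lower (log2 fold change -0.58, adjusted p = 0.00308). Col17a1, the hemidesmosome collagen of basal epithelial cells, was dim in all cultures, at group means of 4.34 to 4.45, and was called in no comparison. Col7a1, whose protein anchors epithelial basement membranes to the stroma, had a log2 fold change of -0.21 (adjusted p = 0.164) that was called on the deposited intensities (-0.27, adjusted p = 0.0474) and after median centring (-0.31, adjusted p = 0.0221), and Col26a1, also dim, had -0.03.

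**Figure D3:**
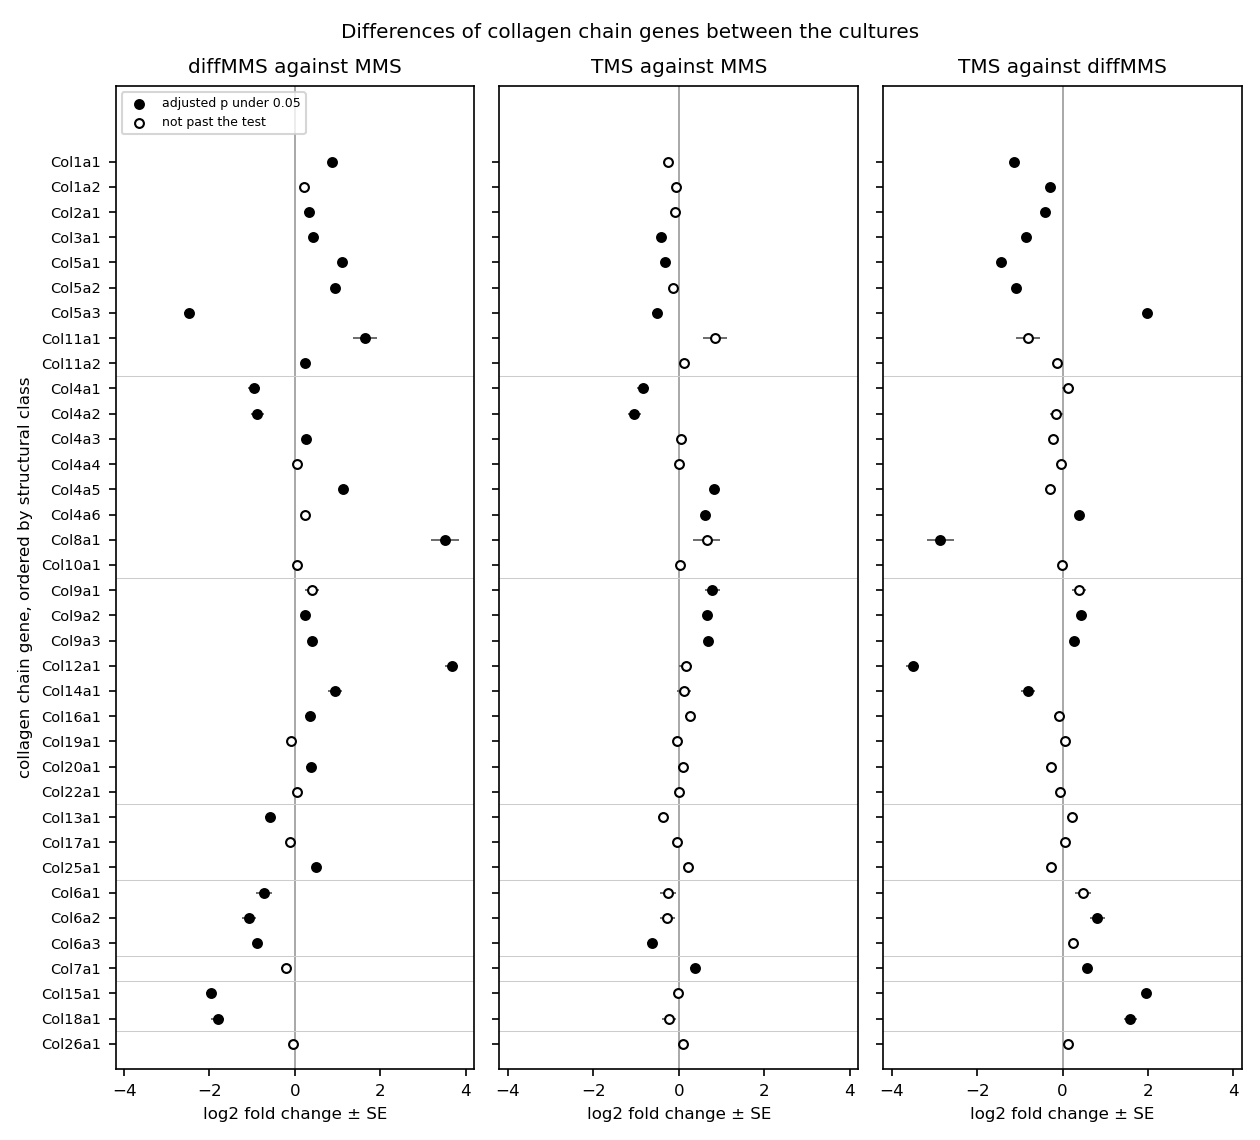
Log2 fold changes with their standard errors (x axis) of the 36 collagen chain genes (y axis, by structural class) in the 3 comparisons, with filled points for an adjusted p under 0.05 and open points for the rest. The range is from -2.49 to 3.67 for diffMMS against MMS and from -1.04 to 0.84 for TMS against MMS.

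The second question was how tumorspheres differ from mammospheres, both grown as spheres in the same medium. Of the 36 genes, 6 were higher in TMS, 6 were lower and 24 were not called, and among all 12393 genes 6.22% were called higher and 7.14% lower. The median log2 fold change of the collagen chain genes was -0.00 and that of all genes 0.00, and the collagen values ran from -1.04 to 0.84. The genes called higher were all 3 chains of collagen IX with Col4a5, Col4a6 and Col7a1, and those called lower were Col4a1, Col4a2, Col3a1, Col5a1, Col5a3 and Col6a3. No multiplexin or transmembrane chain was called.

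In collagen IV, tumorspheres had less of the common chains and more of the Col4a5 and Col4a6 pair. Col4a1 was 10.96, 10.51 and 11.01 in TMS and Col4a2 was 9.24, 9.10 and 9.68, all below every MMS array. The log2 fold changes against MMS were -0.83 for Col4a1 (standard error 0.14, adjusted p = 0.00231) and -1.04 for Col4a2 (standard error 0.152, adjusted p = 0.000966), the latter a 2.05-fold fall. Col4a5 was 7.26, 7.07 and 7.13 in TMS and Col4a6 was 6.92, 6.76 and 6.62, all above every MMS array. Col4a5 was 0.83 higher (standard error 0.104, adjusted p = 0.000362) and Col4a6 0.62 higher (standard error 0.086, adjusted p = 0.000669), and the second probe set of each rose too, by 0.64 and 0.26. Col4a1 and Col4a2 thus had called changes of 1 sign and Col4a5 and Col4a6 of the other, while Col4a3 and Col4a4, which are also neighbors, were at 0.05 and 0.00 and were not called.

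Collagen IX, a FACIT that decorates collagen II fibrils in cartilage, had all of its chains higher in TMS. Col9a1 was 6.96, 6.85 and 6.99 in MMS, 7.40, 7.25 and 7.36 in diffMMS and 8.21, 7.32 and 7.63 in TMS. Col9a2 was 5.24, 5.29 and 5.37 in MMS, 5.51, 5.57 and 5.53 in diffMMS and 6.07, 5.79 and 6.04 in TMS. Col9a3 was 7.11, 7.06 and 7.09 in MMS, 7.48, 7.42 and 7.57 in diffMMS and 7.90, 7.56 and 7.84 in TMS. For each chain all TMS arrays were above all MMS arrays, though the Col9a2 values were dim. The log2 fold changes against MMS were 0.79 for Col9a1 (standard error 0.167, adjusted p = 0.00836), 0.67 for Col9a2 (standard error 0.0784, adjusted p = 0.000224) and 0.68 for Col9a3 (standard error 0.0908, adjusted p = 0.000528). The second probe set of Col9a1 was 1.64 higher in TMS (adjusted p = 0.00238), and of the 2 further probe sets of Col9a3, both with group means near 4, 1 was called, at 0.20. Col2a1, whose fibrils collagen IX coats in cartilage, had -0.08 (adjusted p = 0.676). Of 7 chondrocyte markers 2 were called higher in TMS than in MMS, Sox9 by 0.48 and Cnmd by 0.36, beside 6.22% of all genes. Acan, Matn1, Matn3, Cnmd and Hapln1 were dim. In diffMMS against MMS 1 of the 7 was called higher, Comp, at 0.52, beside 17.9% of all genes. In TMS against diffMMS none was called, beside 12.3% of all genes higher and 12.6% lower. The summed normalized intensity of that list was 311 to 327 in MMS, 365 to 380 in diffMMS and 368 to 381 in TMS, and its part in the collagen IX values was not tested.

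**Figure D4:**
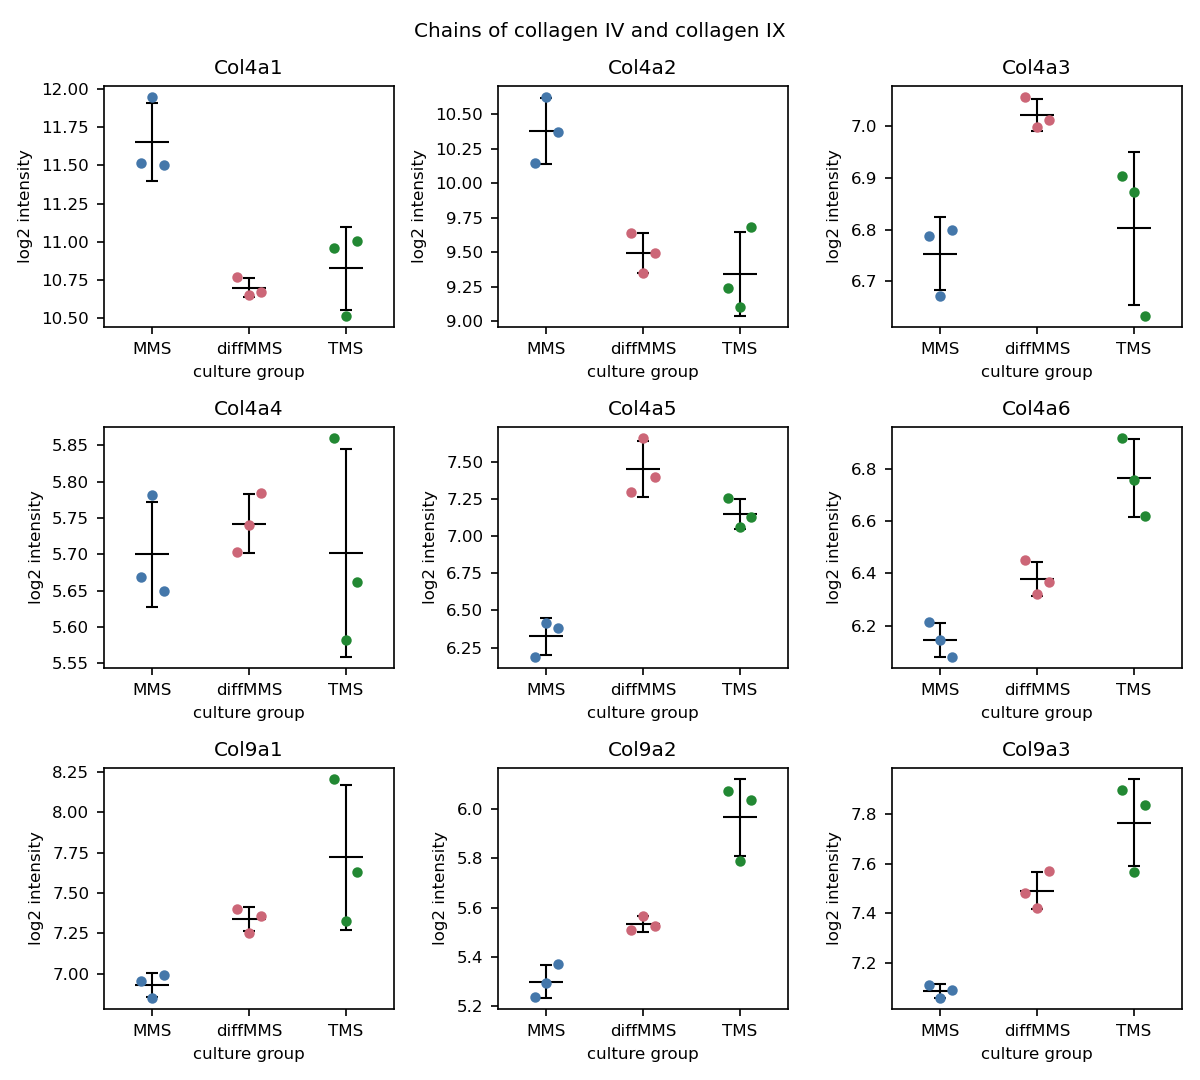
Log2 intensity (y axis) of the 6 collagen IV and 3 collagen IX chain genes in MMS, diffMMS and TMS (x axis), with 1 point for each of the 3 arrays of a group, a bar at the mean and whiskers of 1 SD; the y axes do not start at 0. Col4a1 and Col4a2 are highest in MMS, whereas Col4a5, Col4a6 and all collagen IX chains are lowest there.

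The other called changes in tumorspheres ran from -0.64 to 0.37 on the probe sets that stand for the genes. Some further probe sets had larger called changes. Col3a1 was 12.40, 12.30 and 12.28 in TMS, below every MMS array, and was called lower at -0.42 (standard error 0.0611, adjusted p = 0.000873), with -1.09 on its other probe set. Col6a3 was 0.64 lower (log2 fold change -0.64, adjusted p = 0.00139). Col5a3 was lower at -0.51 (adjusted p = 0.00898), and without MMS replicate 2 its value was -0.44 and its adjusted p 0.0502. The other, dim probe set of Col5a3 was at 0.23 (adjusted p = 0.135), and the mean of its probe sets was not called (-0.14, adjusted p = 0.195). Col5a1, at -0.32 (adjusted p = 0.0442; its further probe sets were at -0.25 and -0.12, of which the first was called), and Col7a1, at 0.37 (adjusted p = 0.0422), were close to the threshold. The call of Col5a1 was lost on leaving out any array but TMS replicate 2 (adjusted p 0.0512 to 0.181), and that of Col7a1 after median centring (0.29, adjusted p = 0.0542) or without any MMS array, diffMMS replicate 2, or TMS replicate 1 or 2 (0.0565 to 0.142). Col1a1 and Col1a2 were at -0.26 and -0.07 and were not called, although the second probe set of Col1a2 was, at -0.39 (adjusted p = 0.00225), as was that of Col5a2, at -0.82 (adjusted p = 0.000494). On the deposited intensities Col1a1 was called lower in TMS (log2 fold change -0.35, adjusted p = 0.0308), whereas its other probe set had a value of the opposite sign that was not called (0.27, adjusted p = 0.523). Col11a1 and Col8a1 had positive values of 0.84 and 0.65 in TMS that the spread between arrays did not let pass (adjusted p = 0.0709 and 0.214). Without TMS replicate 3 Col11a1 was called at 1.14 (adjusted p = 0.00814), and without TMS replicate 1 both Col8a1 and Col13a1 were called, at 1.02 (adjusted p = 0.0393) and -0.48 (adjusted p = 0.019), as was Col1a1 at -0.35 (adjusted p = 0.0214). Col16a1 and Col25a1 were called without TMS replicate 3, at 0.40 (adjusted p = 0.013) and 0.34 (adjusted p = 0.0133).

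Both comparisons above share the MMS arrays, so that the values of a gene in them are not independent. The same 3 groups also give tumorspheres against differentiated cells, in which 8 collagen chain genes were higher in TMS, 9 lower and 19 not called, while 12.3% of all genes were called higher and 12.6% lower. Col12a1 (log2 fold change -3.51), Col8a1 (-2.87), Col5a1 (-1.43), Col1a1 (-1.13) and Col5a2 (-1.08) were lower in TMS, with adjusted p of 4.4e-05 or below, as were Col3a1 (-0.85), Col14a1 (-0.82) and Col2a1 (-0.40). Col5a3 (1.98), Col15a1 (1.96) and Col18a1 (1.59) were higher, with adjusted p of 1.66e-05 or below, as were Col7a1 (0.58), Col9a2 (0.43) and Col4a6 (0.39). The other probe sets of Col5a3 and Col4a6, both dim, were not called, at 0.14 and 0.09 (limma, adjusted p = 0.305 and 0.332). Col6a2 was 0.81 higher (adjusted p = 0.00473), and Col6a1 was 0.47 higher without passing the test (adjusted p = 0.0988) but was called at 0.77 without TMS replicate 3 (adjusted p = 0.000151). Col1a2 was called lower at -0.29 (adjusted p = 0.0427) on the probe set that is the brightest of each diffMMS array, and at -1.13 (adjusted p = 1.59e-07) on its other probe set, and Col9a3 higher at 0.27 (adjusted p = 0.0468). The brighter Col1a2 probe set lost its call on leaving out MMS replicate 1, any diffMMS array, or TMS replicate 2 or 3 (adjusted p 0.0579 to 0.124), and Col9a3 on leaving out any array but TMS replicate 2 (0.0589 to 0.134). Col11a1, at -0.81 (adjusted p = 0.0597), and Col4a5, at -0.30 (adjusted p = 0.054), were called lower in TMS on leaving out diffMMS replicate 1 (-0.99 and -0.39, adjusted p = 0.0497 and 0.0289) or TMS replicate 1 (-1.18 and -0.36, adjusted p = 0.00216 and 0.0402). The other probe set of each was called over all arrays, at -0.66 for Col11a1 (adjusted p = 0.0104) and -0.48 for Col4a5 (adjusted p = 0.0157). Col9a1 was at 0.38 (adjusted p = 0.122) and was called at 0.58 without TMS replicate 2 (adjusted p = 0.0155), and its other probe set was called over all arrays at 1.69 (adjusted p = 0.000875). Single TMS arrays also decided Col25a1 (-0.36 without replicate 1, adjusted p = 0.0205) and Col6a3 (0.35 without replicate 3, adjusted p = 0.0182), neither of which was called over all arrays. The genes called in none of the 3 comparisons were Col4a4, Col10a1, Col19a1, Col22a1, Col17a1 and Col26a1, all of them dim.

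Genes that make, link, bind and cut collagen were counted from lists of their known roles, with the members named by size of change. P4ha3, P3h2, Colgalt2, Fkbp10, Adamts2, Adamts3, Adamts14, Loxl2, Pxdn, Itga1, Itga10, Itga11 and Gp6 of these lists were not measured. Of 40 measured, 20 were higher and 8 lower in diffMMS than in MMS, with a median log2 fold change of 0.21, where 17.9% and 16.2% of all genes were called and the median was 0.05. Enzymes and chaperones that modify and fold the chains had 9 of 16 higher and 1 lower. The largest rises there were of Plod2, a lysyl hydroxylase, at 2.08 and of P4ha2, a subunit of prolyl hydroxylase, at 1.74, and Colgalt1, which adds galactose, was the gene that fell (-0.23). Of 5 procollagen processing genes Pcolce, an enhancer of propeptide removal, was 0.90 higher and the dim Pcolce2 lower (-0.28). All 5 cross-linking genes measured were called, 4 higher and 1 lower. Lox, the lysyl oxidase that starts collagen cross-links, was 8.11, 8.01 and 8.09 in MMS, 12.09, 12.19 and 12.32 in diffMMS and 8.37, 9.20 and 9.36 in TMS, so that diffMMS lay far above both kinds of sphere (log2 fold change against MMS 4.13, standard error 0.194, adjusted p = 2.67e-08). Loxl4 was 0.62 higher and Loxl3 lower (-0.40). Of 6 collagen receptors 4 were higher, with Ddr2 at 0.52 and Ddr1 at 0.40.

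Proteases that cut collagen went mostly the other way in diffMMS, with 5 of 8 lower and 2 higher. Ctsk, a lysosomal collagenase, was 11.69, 11.96 and 11.76 in MMS and 10.33, 9.63 and 9.65 in diffMMS, lower by a called amount (-1.94, standard error 0.167, adjusted p = 4.11e-06), and Mmp9, a gelatinase, was lower at -1.26. The genes that rose were Mmp13, at 0.41, and the dim Mmp8, at 0.28. In TMS against MMS 4 of the 40 genes were higher and 7 lower, with a median of 0.01, beside 6.22% and 7.14% of all genes. Tgm2, a transglutaminase that cross-links proteins, rose by 1.19, Lox by 0.91, Mmp13 by 0.52 and P4ha2 by 0.37. The falls were all smaller than 0.6, the deepest being Mmp2 (-0.60) and the chaperone Serpinh1 (-0.46). Crtap (-0.40), Pcolce2 (-0.36) and Pcolce (-0.32) were also lower. Against diffMMS, 6 of the 40 genes were higher in TMS and 17 lower, beside 12.3% and 12.6% of all genes, and 11 of the lower ones were chain-modifying and folding genes. Ctsk (1.60), Mmp9 (1.39), Tgm2 (0.70) and Loxl3 (0.61) were higher. Lox (-3.22), Plod2 (-2.12), P4ha2 (-1.37), Pcolce (-1.23), Loxl1 (-0.64), the collagen uptake receptor Mrc2 (-0.47) and Mmp8 (-0.26) were lower.

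Markers of cell types were counted in the same comparisons, and their part in the collagen values was not tested. Their counts stand beside shares over all genes of 17.9% higher and 16.2% lower in diffMMS against MMS, and of 6.22% and 7.14% in TMS against MMS. Of 15 fibroblast markers other than collagens, none dim, 6 were higher and 4 lower in diffMMS than in MMS, with Thy1 at 1.42, Fbln2 at 1.39, Lum at -1.84 and Fap, which is also among the collagen proteases, at -1.04. Their summed normalized intensity was 34753 to 35838 in MMS, 37263 to 38552 in diffMMS and 30935 to 32184 in TMS. In TMS against MMS 1 of the 15 was higher (Thy1, 1.04) and 4 were lower, among them Pdgfrb (-0.94) and Dpt (-0.86). Of 10 basal and myoepithelial markers 6 were higher in diffMMS than in MMS, led by the contractile genes Tagln (3.73) and Acta2 (2.59). The basal keratins Krt5 (0.19), Krt14 (-0.01) and Krt17 (0.04) and the marker Oxtr (0.24) were not called there. None of the list was called in TMS against MMS. That list summed to 971 to 1040 in MMS, 4032 to 5872 in diffMMS and 1068 to 1157 in TMS, with Krt17, Trp63 and Myh11 dim. Acta2 and Tagln weigh most in the diffMMS sum, with group means of 11.35 and 10.51 there.

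Luminal markers set tumorspheres apart from both other cultures. Of 11, 9 were higher in TMS than in MMS, led by Lcn2 (5.42) and Krt18 (4.27), and their sum was 9449 to 13889 in TMS against 958 to 1118 in MMS and 1054 to 1274 in diffMMS, with Krt19 and Cdh1 dim. In diffMMS 3 of the 11 were higher than in MMS, led by Cldn3 (0.57) and Krt19 (0.39). Of 8 macrophage markers 3 were higher in TMS than in MMS, led by Lyz2 (2.29) and Cd14 (1.41), with sums of 1244 to 2112 against 592 to 646, and 2 were higher (Csf1r, 0.63, and Cd14, 0.47) and 1 lower (Cd68, -0.51) in diffMMS, which summed to 663 to 1044. Cd68, Adgre1, Ptprc, Fcgr3 and Itgam of that list were dim. Of 8 endothelial markers 4 were lower in TMS than in MMS, led by Pecam1 (-0.61) and Emcn (-0.58), with sums of 566 to 731 against 719 to 764, and diffMMS summed to 947 to 975 with Egfl7 higher (0.86) and Emcn lower (-0.25) than in MMS. Pecam1, Cdh5, Tek, Tie1 and Emcn were dim. In diffMMS against MMS 2 of 6 adipocyte markers were higher (Retn, 0.40, and Cidec, 0.18) and 1 of 6 pericyte markers lower (Notch3, -0.46). In TMS against MMS the adipocyte marker Pparg was lower (-0.49), and of the pericyte markers Notch3 was higher (0.35) and Mcam lower (-0.43). Adipocyte markers summed to 345 to 363 in MMS, 382 to 465 in diffMMS and 328 to 349 in TMS, and pericyte markers to 632 to 664, 486 to 548 and 674 to 824, with Adipoq, Fabp4, Lep, Pparg, Cidec, Rgs5, Abcc9 and Kcnj8 dim.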

How the data were processed

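RNA of 9 cultures was measured on 9 MOE430A arrays, 1 per culture. The authors deposited 1 table of probe set intensity values on a linear scale, already summarised and scaled. Their methods name GeneSpring, and the summary and scaling methods are not given in the sources used here. Of 22690 probe sets, 64 are Affymetrix controls. Of the other 22626, the platform's annotation gives 20380 a single gene symbol, 691 several and 1555 none. RefSeq matched 20351 of the single ones by Entrez identifier, with 0 symbols updated.

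Here a constant of 8.67, or 10% of the overall median, was added, log2 taken, all probe sets quantile normalized and controls dropped. A single limma 3.58.1 fit in R 4.3.3 (lmFit, eBayes with intensity trend) compared the 3 groups over 9 arrays leaving 6 residual degrees of freedom. Tests were two-sided, with Benjamini-Hochberg adjustment over 22626 probe sets and a threshold of 0.05. With 3 arrays a group, their number limits the precision. Fold changes are on the scale with the added constant and understate those of dim probe sets. Summed marker levels are sums of the normalized intensities less that constant. Replicate numbers follow accession order and are names only.

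Values on every array were due for chains called with an absolute log2 fold change of 1 or more in a comparison, with the other chains of the type beside them. Of each further list, up to 2 of the largest called rises and falls were named (for cell type markers in the comparisons against MMS only), and Krt18, Krt14 and Erbb2 served as label checks. All other genes of the label check, and genes given for a call near the threshold, were chosen after their values were seen. Members and lists were chosen with earlier results of these data known. Alternatives were deposited values, median centring, other pseudocounts, a filter on dim probe sets, other variance settings, array weights, a fit of the compared pair of groups alone, leaving out each array, other probe sets and a threshold of 0.01.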

Additional observations from a re-analysis of the deposited data

How the results depend on the processing

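The number of collagen chain genes called higher in diffMMS than in MMS was 17 and ran from 11 to 20 on leaving out 1 array in turn, with 11 without MMS replicate 2 or without MMS replicate 3. It was 11 at an adjusted p under 0.01. The other 5 counts stayed within 1.5 times their value under every alternative run. All 12 genes called with an absolute log2 fold change of 1 or more kept direction and call in those comparisons, over 360 refitted values. A probe set that was neither the one used nor that of the largest F entered these refits only through the mean. That was so for the other, dim probe set of Col5a3. By itself it was not called, at 0.09 in diffMMS against MMS and 0.14 in TMS against diffMMS (limma, adjusted p = 0.509 and 0.305). Of the genes called, 19 of 26 in diffMMS against MMS, 9 of 12 in TMS against MMS and 15 of 17 in TMS against diffMMS held. They were called at an adjusted p under 0.05 in every refit that tested them. The threshold of 0.01 is not part of these counts. Col2a1, counted among the 15, had an adjusted p of 0.0132 in the main limma fit. The filter on dim probe sets kept 12326 probe sets and 27 of the 36 genes. Other scalings kept the median of all genes between -0.03 and 0.07. Calls lost or gained without a single array are given beside their genes, and the cause was not tested where a call was lost. Where a gene had several probe sets, some but not all were called for 4 genes in diffMMS against MMS, 5 in TMS against MMS and 6 in TMS against diffMMS, and 0 genes were called both ways. No paired analysis was possible because the labels carry no replicate numbers.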
